A study of Mus musculus with 12 samples.

Results

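The olfactory bulb of mice lacking interleukin-18 (IL-18 KO) was compared with that of wild-type (WT) mice on 2 of the 12 arrays of the study, the arrays titled Olfactory bulb KO and Olfactory bulb WT. Each array carried RNA pooled in equal amounts from 5 male mice of 12 weeks, so there was 1 array a side and no spread between animals could be measured. The labels give strain C57BL/6 for both groups. In the design text, bought IL-18-/- males were crossed with C57BL/6J females, and the mice compared were the littermates of the second generation. Chromosome segments of the purchased IL-18-/- line away from Il18 could thus still segregate in both groups. Segments close to Il18 are inherited with it, so their origin cannot be told apart from the genotype. The KO is present in every cell from conception and is not restricted to a cell type. Both groups were perfused with cold saline before the brain was removed, and the olfactory bulb was a coronal slice of 1 mm taken from 3.5 to 4.5 mm anterior to bregma. The same pairing of 1 WT and 1 KO array was made for 5 other regions, namely hypothalamus, hippocampus, striatum, prefrontal cortex and amygdala. The array labelled amygdala WT carried Pmch, a peptide of the lateral hypothalamus looked up for this check, at 6.02, against 5.92 on the hypothalamus WT array and -1.64 on the amygdala KO array, so its pair is called by its label and kept out of counts over regions.

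Interleukin-18 is a cytokine of the interleukin-1 family that is made as an inactive precursor, cut by caspase-1 in inflammasomes, and recognised by a receptor of the chains Il18r1 and Il18rap that signals through Myd88 and Irak kinases to NF-kB. The olfactory bulb is the first relay of smell. Axons of olfactory sensory neurons enter it from the nasal epithelium, wrapped by olfactory ensheathing glia, and contact mitral and tufted cells, while GABA and dopamine interneurons, renewed throughout life by migrating neuroblasts, shape their output.

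A level is given throughout as the log2 of a probe's processed signal minus the log2 of the 75th percentile of gene spots on its array, which was 636 on the WT array and 716 on the KO array. A difference is the KO level minus the WT level of the same probe, and levels of different probes cannot be compared. Of 41174 probes, 31912 were well above background on both arrays, and the brighter part of these, 15956 probes with a mean level over -1.46, was described. The dimmest probe kept had a mean level of -1.4616 and the brightest probe left out -1.4621. These probes stood for 13375 genes and transcripts, 8976 of them with a gene name here, each represented by its brightest probe. Of the gene spots, 81.3% were well above background on the WT array and 78.8% on the KO array, and none was saturated. With 1 array a side there is no test. The error given beside a difference is the error of the scanner software for the spots alone, with a median of 0.20, and does not cover differences between mice or pools. Among 119 probes printed in 10 spots, the SD between spots had a median of 0.0607 on the WT array and 0.0506 on the KO array.

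The label of the tissue was checked on known genes of the bulb. Of 28 measured interneuron genes, 16 were higher on both bulb arrays than on any of the 10 arrays of other regions, 13 of them by 2-fold or more. The same held for 5 of 18 mitral and tufted cell genes, 4 of 9 genes of sensory neurons and epithelium and 6 of 13 of ensheathing glia, lists that hold genes other regions express too. Eomes, a transcription factor of mitral and tufted cells, stood at 0.63 on the WT array and 0.59 on the KO array, 5.50 above the highest other array. The dopamine enzyme Th stood at 1.83 and 2.02, 3.23 above the highest other array. Of 15 genes of cerebral cortex and anterior olfactory nucleus, 0 were above every array of the other regions. Genes higher in the bulb than in the other regions were thus present on both arrays of the pair. The Y-linked gene Eif2s3y stood at 1.87 and 1.71, and the X-inactivation transcript Xist was not well above background on either array, as the label of male mice requires.

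Il18 itself was the most different gene. Its probe, printed in 10 spots, stood at 0.71 on the WT array (SD 0.0719 between 10 spots) and at -3.45 on the KO array (SD 0.11 between 7 spots, 3 having been set aside as outliers by the scanner software). The difference was -4.16 (spot error 0.08), or 17.9-fold lower on the KO array. The size depends on how the background is treated, since it was -3.14 after normexp correction. In the same contrast it was -4.52 in hypothalamus, -3.73 in hippocampus, -4.38 in striatum, -4.26 in prefrontal cortex and -5.10 in the pair labelled amygdala. Il18 was thus far below WT in every pair, and the labels of genotype hold for the bulb arrays. The KO probe remained above background, so a low signal was still read there.

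Few other genes were far apart. Of the 13375 genes and transcripts, 1 (0.00748%) was higher by 2-fold or more on the KO array and 16 (0.12%) were lower. With a name, 0 were higher by that much and 10 were lower. At 1.5-fold, 34 (0.254%) were higher and 67 (0.501%) lower. The direction of that second split depends on the scaling, since centring the arrays on their medians gave 55 higher and 53 lower. The median difference over all genes was -0.02, the median absolute deviation 0.0946, and 3.12% of genes differed by more than 2 spot errors. The olfactory bulb pair was among the closest of the study. By the same rule the number of genes 2-fold apart was 17 in olfactory bulb, 30 in hypothalamus, 58 in striatum, 66 in hippocampus, 191 in prefrontal cortex and 269 in the pair labelled amygdala. The only 2-fold higher item, the unnamed transcript BC008228, stood at -2.42 on the WT array and 0.12 on the KO array, and its difference elsewhere ran from -0.57 in hypothalamus to 0.12 in striatum.

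**Figure D1:**
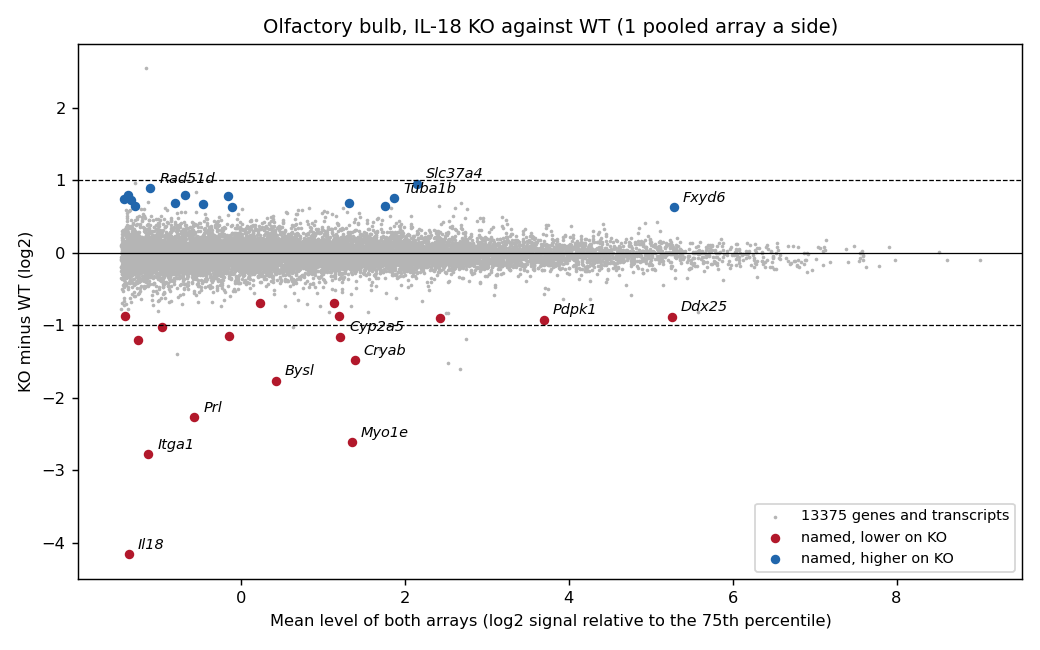
Each point is 1 of 13375 genes and transcripts of the olfactory bulb, with its mean level on both arrays on the x axis (log2 relative to the 75th percentile) and the KO minus WT difference on the y axis (log2). Dashed lines mark a 2-fold difference. Most points lie close to 0, Il18 lies lowest at -4.16, and the named genes below the lower dashed line have no named counterpart above the upper one.

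The lowest named genes after Il18 were Itga1 and Myo1e. Itga1, the alpha-1 chain of a collagen-binding integrin, stood at 0.25 on the WT array and -2.52 on the KO array, a difference of -2.77. A second probe for Itga1 lay far lower and differed by -0.15. Myo1e, an unconventional myosin that links membranes to actin, stood at 2.66 and 0.05, a difference of -2.61, while its second probe above background differed by -0.01. For both genes the 2 probes disagree, so the low value belongs to 1 probe and not to every probe of the gene. The probe of Myo1e was also lower on the KO array in prefrontal cortex (-1.96), striatum (-0.82), hippocampus (-0.70) and the pair labelled amygdala (-3.20), and differed by 0.21 in hypothalamus. It was not well above background on both arrays in prefrontal cortex and hippocampus.

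Bysl, a factor needed to make small ribosomal subunits, was apart in the bulb and in no other region. Its brightest probe stood at 1.31 on the WT array and -0.46 on the KO array, a difference of -1.77. The other 2 member probes of Bysl differed by -0.18 and -0.07, and the brightest probe differed by between -0.10 and 0.06 in prefrontal cortex, striatum, hippocampus and hypothalamus and by 0.19 in the pair labelled amygdala. The value rests on 1 spot on each array. Pdpk1, the kinase that activates Akt, stood at 4.16 and 3.23 (difference -0.92), with 0.38 and 0.23 at its other probes. Ddx25, an RNA helicase best known from the testis, stood at 5.70 and 4.82 (difference -0.88), with 0.47 at its other probe. Of the 15 genes lowest on the KO array, 9 had a second probe above background, and 6 of those, Cyp2a4 included, had a probe that differed in sign or by over 0.5.

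Other low genes had probes close to each other, or only 1 probe. Cryab, a small heat shock chaperone, stood at 2.13 on the WT array and 0.65 on the KO array, a difference of -1.48, with -1.18 at its second probe. In the 4 regions other than the amygdala, Cryab differed by between -1.14 and -0.86. Like Il18, it was below WT in each of the 6 regions. The brightest probes of Itga1, Pdpk1 and Ddx25 were too, though other probes of these genes disagreed in the bulb. For Itga1, signal was not well above background on both arrays in prefrontal cortex, hippocampus and the pair labelled amygdala.

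Hormone and blood genes followed. Prl, the pituitary hormone prolactin, stood at 0.56 on the WT array and -1.70 on the KO array, a difference of -2.26. Its direction was not shared between regions, with 0.70 in hypothalamus, 1.04 in hippocampus, -0.96 in striatum and -1.84 in prefrontal cortex. Gh, the pituitary growth hormone, was too dim to be kept and was looked up after its value was seen, at -1.75 and -3.82 (difference -2.07). The hemoglobin chains were both lower. Hbb-bt stood at 2.88 and 1.97 (difference -0.91), with its 4 probes between -1.03 and -0.80. Hba-a1 stood at 1.48 and 0.67 (difference -0.81). S100a9, a calcium-binding protein of neutrophils, stood at 1.63 and 0.76 (difference -0.88), and its partner S100a8, dimmer and also looked up after its value was seen, at -1.91 and -2.73. In bulk tissue, fewer cells of a type and less RNA per cell cannot be told apart. Over the 5 genes of the red blood cell list with a probe, dim ones included, the signal summed to 10.5 times the 75th percentile signal on the WT array and 5.78 times on the KO array. Hbb-bt and Hba-a1, the 2 members, differed by -0.26 each in prefrontal cortex, by -0.17 and -0.23 in striatum and by 0.82 and 0.74 in hypothalamus. S100a9 differed by -1.06 in prefrontal cortex, 0.52 in striatum and -1.09 in hypothalamus, so it did not follow the hemoglobin chains between regions. The part of the hemoglobin chains in other results was not tested.

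Enzymes of the nasal epithelium were lower as well. Cyp2f2 and Cyp2g1 are cytochrome P450 enzymes abundant in olfactory mucosa. Cyp2f2 stood at -0.66 on the WT array and -1.85 on the KO array (difference -1.20), and Cyp2g1 at -0.46 and -1.48 (difference -1.02). Cyp2a5 stood at 1.79 and 0.63 (difference -1.16), with -1.10 at its second probe. Cyp2a4 stood at 0.43 and -0.71 (difference -1.14), with -0.54 at its second probe. Cyp2a4 and Cyp2a5 are near-identical copies, so their probes may read each other's transcript. All 4 enzymes had differences below 0 in prefrontal cortex and striatum, but not all in hippocampus and hypothalamus. In striatum, Cyp2a5 and Cyp2a4 were close to WT, at -0.04 and -0.05. Cyp2f2 in striatum (-0.75), and Cyp2a5 (-2.85) and Cyp2a4 (-2.47) in prefrontal cortex, were not well above background on both arrays. Several of the other regions had no signal well above background for these enzymes. Cyp2g1, above background in all regions, differed by between -0.54 and 0.03 in the 4 regions other than the amygdala.

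The olfactory sensory neuron and epithelium list had 27 entries, of which 9 were members, 6 lower and 3 higher, with a median of -0.15 against -0.0074 over all named members. Its 2 members lower by 2-fold were Cyp2f2 and Cyp2g1, against 0.12% lower by 2-fold among all genes. The other members of the list were closer to WT. S100a5, a calcium-binding protein of sensory neurons, stood at 5.08 on the WT array and 4.83 on the KO array. Gng13, a G protein gamma chain, stood at 4.65 and 4.28, and Cnga2, the channel subunit of odour transduction, at -1.0 and -1.10. Gap43, which encodes a growth cone protein and is also on the pan-neuronal list, stood at -0.51 and -0.35. Gap43 and Gng13 were higher on an array of another region than in the bulb, so neither was particular to sensory axons here. The members that lay far from WT were thus the 2 enzymes, and the other members differed by between -0.36 and 0.17. Over the 25 genes of the whole list with a probe, dim ones and the enzymes included, the summed signal was 70.3 on the WT array and 58.4 on the KO array.

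Genes higher on the KO array were fewer and differed less. Slc37a4, the glucose-6-phosphate transporter of the endoplasmic reticulum, was the highest, at 1.67 on the WT array and 2.62 on the KO array, a difference of 0.95. It was also higher on the KO array in the 4 regions other than the amygdala, by 0.22 to 0.69. Fxyd6, a regulator of the sodium pump, stood at 4.97 and 5.60 (difference 0.63), with 0.63 at its second probe. Of the proton pump subunits, Atp6v1c1 stood at -0.55 and 0.24 (difference 0.79) and Atp6v1e1 at 1.44 and 2.08 (difference 0.64). The second probe of Atp6v1e1 differed by 0.59. Tuba1b, an alpha-tubulin, stood at 1.50 and 2.25 (difference 0.75), and the chaperonin subunit Cct6a at -1.08 and -0.28 (difference 0.80). Eef1a2, the translation elongation factor of neurons and muscle, stood at 0.98 and 1.67 (difference 0.69).

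The remaining genes among the 15 highest were Rad51d, a recombination protein (0.89, with -0.02 and 0.11 at its other probes), Ptpn14, a tyrosine phosphatase (0.79), Aar2, a splicing factor (0.73, with -0.16 at its other probe), and Clic5, a chloride intracellular channel protein (0.73). Farp2 and Dync2li1 both differed by 0.68, Spg21 by 0.65 and Pds5b, a cohesin factor, by 0.64. Of the 15, 14 were higher on the KO array in at least 3 of the 4 regions other than the amygdala. Among all 8976 named members, 5224 had the sign of the bulb in at least 3 of these 4. Their medians were 0.22 in hypothalamus, 0.39 in hippocampus, 0.0002 in striatum and 0.48 in prefrontal cortex. Cct6a stood at 1.46 in prefrontal cortex and -0.37 in striatum, and Atp6v1c1 at 1.56 and -0.07.

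**Figure D2:**
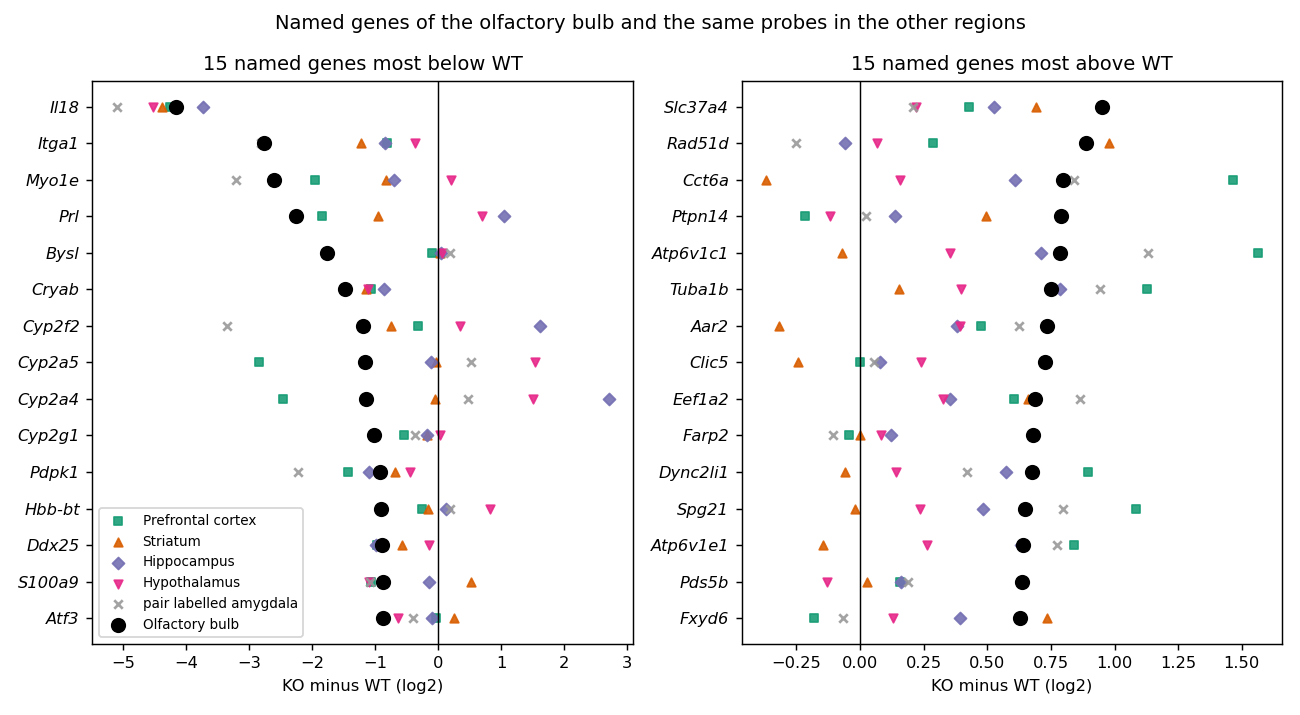
KO minus WT differences (log2, x axis) of the 15 named genes lowest on the KO array of the olfactory bulb (left) and the 15 highest (right), with the olfactory bulb as large black points and the same probes in the other regions as coloured marks. Il18, Cryab, Itga1, Pdpk1 and Ddx25 are below 0 in every region, and Bysl lies near 0 in every region but the bulb. The genes to the right are mostly above 0 in prefrontal cortex and hippocampus, with a median of 0.0002 in striatum.

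The sign of a bulb difference was compared with that of the other regions, which hold different arrays. Of all 8976 named members, 26.1% had the sign of the bulb in each of prefrontal cortex, striatum, hippocampus and hypothalamus. Of the 42 named genes lower by 1.5-fold or more in the bulb, 16 (38.1%) did, and of the 22 higher, 6 (27.3%). Among the 15 lowest genes, 5 were lower in all 4 regions, and among the 15 highest, 3 were higher in all 4. Across member genes, as a description, the bulb difference correlated with that of prefrontal cortex at a Pearson r of 0.617, of hippocampus at 0.505, of hypothalamus at 0.394 and of striatum at 0.256. No label states if 1 set of mice gave the pools of every region, and genes are not independent replicates.

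Immediate early genes, which neurons switch on within minutes of activity, were mostly lower on the KO array. Of 27 genes listed, 24 were members, 20 of them lower and 4 higher, with a median of -0.35 against -0.0074 over all named members, of which 52.5% were lower. The list held 3 genes lower by 1.5-fold and 0 higher, where 0.501% of all genes were lower by that much. The number lower was 20 of 24 under each way of scaling the arrays. The lowest members encode nuclear proteins. Atf3, a stress-induced transcription factor, stood at -0.98 on the WT array and -1.85 on the KO array (difference -0.87). Nr4a1, an orphan nuclear receptor, stood at 5.99 and 5.17 (difference -0.82).

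Egr2 and Fos were printed in 10 spots each and so had a measured spread between spots. Egr2, a zinc finger factor, stood at 1.95 on the WT array (SD 0.07, 10 spots) and 1.14 on the KO array (SD 0.0699), a difference of -0.81. Fos, the most used marker of neuronal activity, stood at 1.85 (SD 0.0571, 10 spots) and 1.50 (SD 0.0395), a difference of -0.35. Both differences were several times the spread between spots, which covers neither mice nor pools. Egr1, a zinc finger factor of synaptic plasticity, stood at 5.38 and 4.93. Egr4 stood at 3.98 and 3.41 and Nr4a2 at 1.63 and 1.06. The phosphatase Dusp1, which switches off MAP kinases, stood at 1.80 and 1.39.

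The 4 exceptions included Arc, an effector of synaptic plasticity, at 4.44 on the WT array and 4.46 on the KO array, and Jun, at 1.52 and 1.66. Homer1 stood at 0.60 and 0.73 and Ier5 at 3.51 and 3.59. Klf2, one of the brightest members, stood at 5.75 and 5.62. Npas4, a factor restricted to neurons, stood at 1.48 and 1.40. The list was not uniform, and members lay on both sides of 0. Elsewhere its median was -0.20 in hypothalamus, -0.07 in hippocampus, -0.22 in striatum, -0.23 in prefrontal cortex and 0.03 in the pair labelled amygdala. In all, 10 of the 24 members were lower in the bulb and in all 4 regions other than the amygdala, where 11.4% of named members were. Genes switched on later by activity, listed as effectors, had 7 of 12 members lower and a median of -0.12, with Plk2, a kinase, at -0.48.

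**Figure D3:**
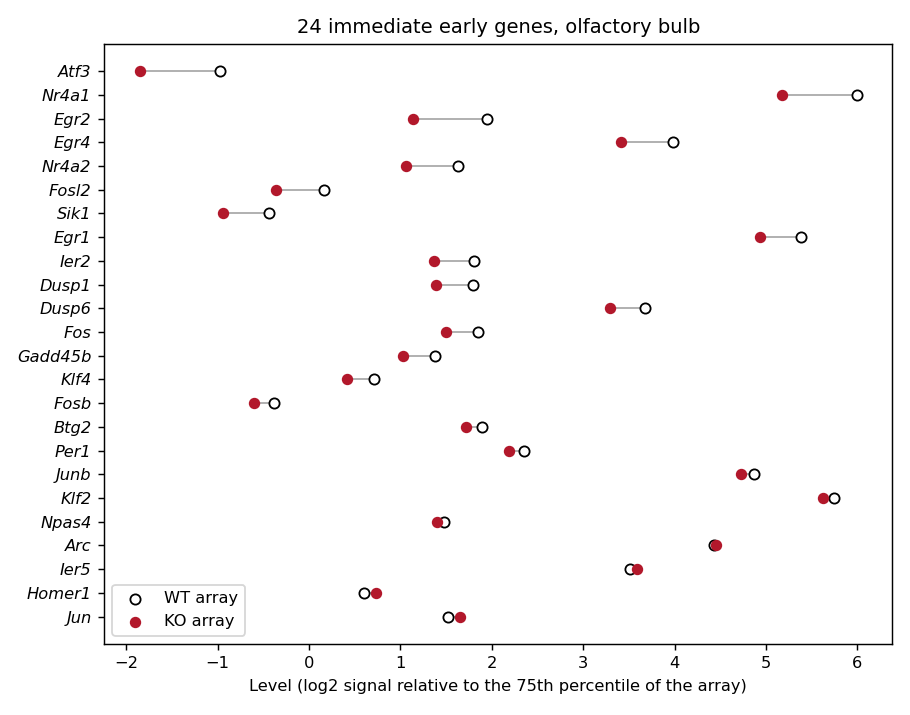
Levels (log2 relative to the 75th percentile, x axis) of the 24 immediate early genes on the WT array (open circles) and the KO array (filled circles), 1 array a side, ordered by their difference. The filled circle lies to the left of the open one for 20 genes, furthest for Atf3, Nr4a1 and Egr2, and to the right for Arc, Ier5, Homer1 and Jun.

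Many immediate early genes are driven by CREB through cyclic AMP response elements, and the promoters of Nr4a1, Fos and Atf3 are shown because these genes stand at the head of the list or are its best known member. Each sequence is the 250 bases before the start site, from the promoter table of RefSeq (GRCm38.p6), read 5′ to 3′ on the strand of the gene, with capitals for the core motif TGACG or its reverse complement CGTCA. Nr4a1 lies at chr15:101266596-101266845 on the plus strand, Fos at chr12:85473640-85473889 on the plus strand and Atf3 at chr1:191183334-191183583 on the minus strand.
Nr4a1: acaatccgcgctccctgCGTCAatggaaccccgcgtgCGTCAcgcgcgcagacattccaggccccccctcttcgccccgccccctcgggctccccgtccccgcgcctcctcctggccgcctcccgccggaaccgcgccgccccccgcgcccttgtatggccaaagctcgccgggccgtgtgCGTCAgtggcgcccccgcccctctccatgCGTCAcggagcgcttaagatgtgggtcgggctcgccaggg
Fos: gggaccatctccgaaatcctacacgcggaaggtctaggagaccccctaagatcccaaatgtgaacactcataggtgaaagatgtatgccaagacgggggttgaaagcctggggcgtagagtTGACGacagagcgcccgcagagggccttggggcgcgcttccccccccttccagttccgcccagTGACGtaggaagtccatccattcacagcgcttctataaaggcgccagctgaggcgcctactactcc
Atf3: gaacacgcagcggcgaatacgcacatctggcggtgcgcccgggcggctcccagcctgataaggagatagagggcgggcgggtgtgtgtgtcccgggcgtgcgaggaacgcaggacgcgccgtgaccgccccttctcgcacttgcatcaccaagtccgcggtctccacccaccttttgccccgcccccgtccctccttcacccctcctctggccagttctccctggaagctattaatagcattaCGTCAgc
Nr4a1 holds 4 core motifs, at 233, 213, 69 and 40 bases before the start, Fos holds 2, at 129 and 66 bases, and Atf3 holds 1, at 7 bases. The core motif is part of the full element TGACGTCA, which is in none of these windows. The search covered both strands, 1 start per gene. Of 32851 promoters of the same length, 17.8% held a core motif and 1.55% the full element. Of the 20 immediate early members with a promoter listed, 15 (75%) held a core motif, against 31.2% of the 7257 named members with one. The full element was in 2 of the 20 (10%), against 3.09%. The CArG box, a further motif searched, was in 1 (5%), against 1.41%. The base composition of the promoters was not matched. A match is a description of the letters and not of a bound site.

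The genome around Il18 was examined because the mice came from a cross. Of 48 genes listed near Il18 on chromosome 9, 24 were members, 13 lower and 11 higher, or 12 lower under median scaling. Of these, 4 were lower by 1.5-fold or more, namely Il18, Cryab, Alg9 and Pts, and 0 were higher. The list did not hold Slc37a4 and Fxyd6. With them, the 50 measured named genes on each side of Il18 held 2 higher and 3 lower by 1.5-fold. Alg9, a mannosyltransferase of N-glycan assembly, stood at 0.58 on the WT array and -0.12 on the KO array (difference -0.69, with -0.34 at its second probe). Pts, an enzyme of tetrahydrobiopterin synthesis, stood at 1.47 and 0.78 (difference -0.69, with -1.03 at its second probe). Pts is the gene next to Il18 in the order of measured genes, Cryab the fifth on the other side and Alg9 the seventh. In the 4 regions other than the amygdala, Alg9 differed by between -0.66 and -0.42 and Pts by between -0.55 and -0.28.

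Genes between them differed by less than 1.5-fold, from -0.19 at Dixdc1 to 0.23 at Dlat. Sdhd, a subunit of succinate dehydrogenase, differed by -0.18 and Timm8b, a mitochondrial import factor, by 0.16. Of the genes listed near Il18, the highest were Fdx1, an electron carrier of steroid synthesis, at 0.55, and Hyou1, a chaperone of the endoplasmic reticulum, at 0.40. Among the 10 measured named genes on each side of Il18, 3 of 20 (15%) were 1.5-fold apart, and 4 of 40 among the 20 on each side. The share was 5.0% among the 50 on each side, 1.74% over all 518 measured named genes of chromosome 9, Il18 included, and 0.65% on other chromosomes. The median absolute deviation was 0.1685 among the nearest 20 genes and 0.0884 on other chromosomes. Of the 15 lowest and 15 highest genes of the bulb, 4, Il18 included, and 3 lie on chromosome 9, which holds 518 of the 8976 named members. Among them, Slc37a4 and Fxyd6 lie within 50 genes of Il18 on 1 side. Myo1e, Ddx25 and Spg21 lie 110, 76 and 89 places from it, and Myo1e and Ddx25 each have another probe that disagrees. The names and order come from RefSeq (GRCm38.p6), which is not the assembly of the array design. Whether the genes around Il18 differ in origin between the pools was not tested, and by the cross that origin cannot be told apart from the Il18 genotype.

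**Figure D4:**
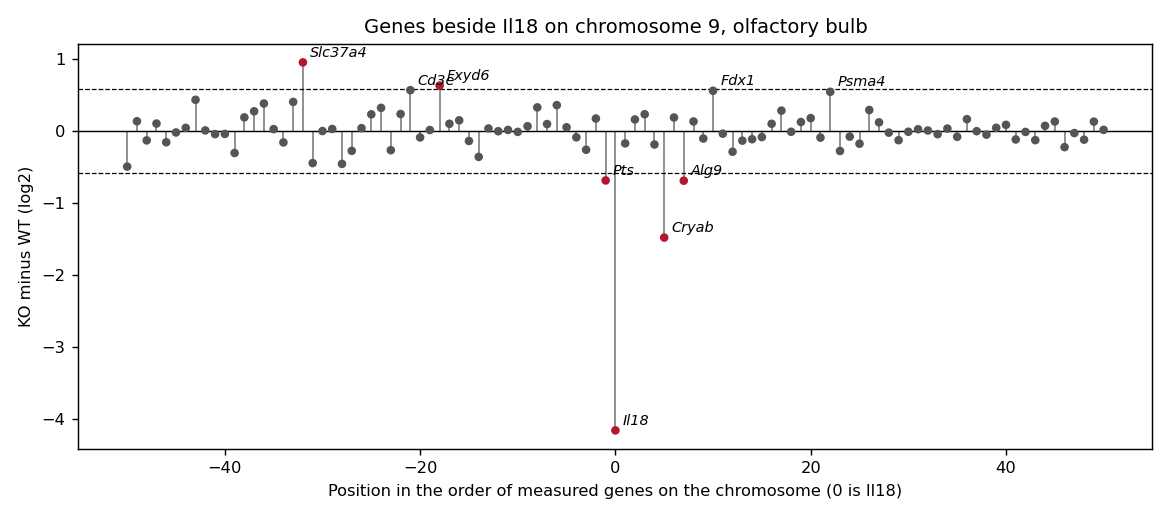
KO minus WT differences (log2, y axis) of the named genes on chromosome 9 within 50 places of Il18 in gene order (x axis), 1 point per gene, with dashed lines at 1.5-fold. Il18, Cryab, Alg9 and Pts lie below the lower line, all within 10 places of Il18, and Slc37a4 and Fxyd6 lie above the upper line.

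The pathway of interleukin-18 was close to WT apart from Il18. Of 29 genes listed, 28 had a probe, 21 were well above background on both arrays and 12 were members. The 11 members besides Il18 differed by between -0.36 and 0.17. Casp1, the protease that activates the cytokine, stood at 0.63 on the WT array and 0.78 on the KO array. Nlrp3, an inflammasome sensor, was the lowest of them, at -1.18 and -1.54. The related cytokine Il33 stood at 1.15 and 1.32. Both receptor chains, Il18r1 and Il18rap, were not well above background on either array, and neither were Il1b and Il6. Il18bp, the secreted decoy that binds IL-18, was well above background but just too dim to be kept, at -1.53 and -1.65. Downstream, Myd88, Irak1 and Nfkb1 differed by -0.05, -0.09 and -0.05, and the NF-kB inhibitor Nfkbia by 0.04.

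Neurons of the bulb were close to WT on the whole. Of 28 interneuron genes, 12 were lower and 16 higher, with a median of 0.01, and 6 were lower under median scaling. Slc32a1, the vesicular GABA transporter, stood at 6.92 on the WT array and 6.91 on the KO array, Calb2 (calretinin) at 2.25 and 2.51, and Scgn (secretagogin) at -1.19 and -0.87. Nr4a2, at -0.57, was the lowest of them and is also an immediate early gene. Of 18 mitral and tufted cell genes, 13 were lower and 5 higher, with a median of -0.07, but 9 of 18 were lower when the arrays were centred on their medians. Tbx21 stood at 3.09 and 3.22, Cdhr1 at 4.48 and 4.52, and Ebf3 at -0.51 and -0.81. Of 16 pan-neuronal genes, 6 were lower and 10 higher (5 lower under median scaling), with 1, the synaptic vesicle protein Syn1, higher by 1.5-fold, at 2.46 and 3.06. None of the 28 interneuron and 18 mitral and tufted cell genes was 1.5-fold apart. Among all 8976 named members, 22 were higher and 42 lower by that much, so lists of this size would seldom hold such a gene.

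The glutamate receptor subunits among the members stood on 1 side of 0. All 12 member subunits were lower on the KO array, with a median of -0.14, where 52.5% of named members were lower. All 12 were lower under median scaling as well, with a median of -0.08. With all probes well above background kept, 14 of 19 subunits were lower, with a median of -0.12. Of the AMPA receptor subunits, Gria1 stood at 5.82 and 5.67 and Gria2 at 5.18 and 5.07. No member subunit differed by more than 2 spot errors, where 2.61% of named members did. Of the 12, 5 were also lower in all 4 regions other than the amygdala, where 11.4% of named members were lower in the bulb and all 4. Of 11 GABA receptor subunits, 4 were lower and 7 higher, and of 27 potassium channel genes, 12 were lower and 15 higher; under median scaling 1 and 9 were lower.

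Glial genes divided by cell type. Of 13 members among the genes of olfactory ensheathing glia, the cells around the incoming axons, 11 were lower and 2 higher, with a median of -0.15; the number lower was 9 under median scaling. Fabp7, a fatty acid binding protein of these glia and of radial glia, stood at 6.47 on the WT array and 6.13 on the KO array, and S100b at 5.79 and 5.59. Npy stood at 2.58 and 2.60. Microglia genes leaned the other way, with 2 of 13 members lower and 11 higher and a median of 0.05, where 52.5% of named members were lower. C1qa, the first chain of complement C1q, stood at 0.26 and 0.55, Sall1, a factor that keeps microglial identity, at -1.21 and -0.91, and the purine receptor P2ry12 at -0.69 and -0.71. The summed signal of the 20 microglia genes with a probe, dim ones included, was 39.0 on the WT array and 40.9 on the KO array. Of the 13, 0 differed by more than 2 spot errors, where 2.61% of named members did. Of the same 13, 5 were higher in the bulb and in all 4 regions other than the amygdala. Of all named members, 26.1% had the sign of the bulb, higher or lower, in all 4. Astrocyte and oligodendrocyte lists had medians of -0.01 and 0.02.

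Tissue around the bulb was represented too. Of 18 meningeal fibroblast and collagen genes, 15 were lower and 3 higher, with a median of -0.15 and a count of 14 lower under median scaling. Col1a1, a chain of fibrous collagen, stood at 1.40 on the WT array and 0.89 on the KO array, Igf2, a growth factor of the meninges, at 3.34 and 2.87, and Ptgds at 6.94 and 6.85. The median of the list elsewhere was -0.86 in hypothalamus, -0.08 in hippocampus, 0.14 in striatum and -0.05 in prefrontal cortex. Of 16 endothelial and pericyte genes, 13 were lower and 3 higher, with a median of -0.12 and a count of 10 lower under median scaling. The smooth muscle genes Acta2 and Tagln lay at the ends of that list, at 0.56 and -0.36. Choroid plexus markers had 6 members of 15 entries, 4 lower and 2 higher, with Folr1 at -1.06 and -1.79 and Clic6 at -1.0 and -1.60, while the defining markers Ttr and Otx2 were not well above background on both arrays. All 5 ependymal members were lower, by 0.07 to 0.23. The part of these cells in other results was not tested.

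Housekeeping and stress lists were near 0. Of 52 cytosolic ribosomal protein genes, 31 were lower and 21 higher, with a median of -0.02, but the balance turned under median scaling, to 18 lower. Of 45 respiratory chain subunit genes, 24 were lower and 21 higher, with the same median, and 16 were lower under median scaling. Of 28 heat shock and chaperone genes, 14 were lower and 14 higher, 10 lower under median scaling, and Cryab was the 1 member apart by 1.5-fold. Of 13 interferon-responsive genes, 6 were lower and 7 higher, with 3 lower under median scaling. Antigen presentation genes had 2 of 9 members lower, both of class II, namely Cd74 at -1.04 on the WT array and -1.42 on the KO array and H2-Ab1 at -0.40 and -0.75. The class I genes H2-D1 and H2-T23 differed by 0.17 and 0.15. Of 20 neuropeptide precursors, 11 were lower and 9 higher, or 8 lower under median scaling, from Adcyap1 (PACAP), at 1.18 and 0.83, to Ghrh, at -1.17 and -0.71. Of 16 clock genes, 6 were lower and 10 higher, and Nfil3, a repressor tied to the clock, was the lowest at -0.54. Glucocorticoid-responsive genes had 6 of 13 members lower, migrating neuroblast and proliferation genes 11 of 19, and genes of cerebral cortex and anterior olfactory nucleus 9 of 15, against 5, 8 and 7 under median scaling.

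**Figure D5:**
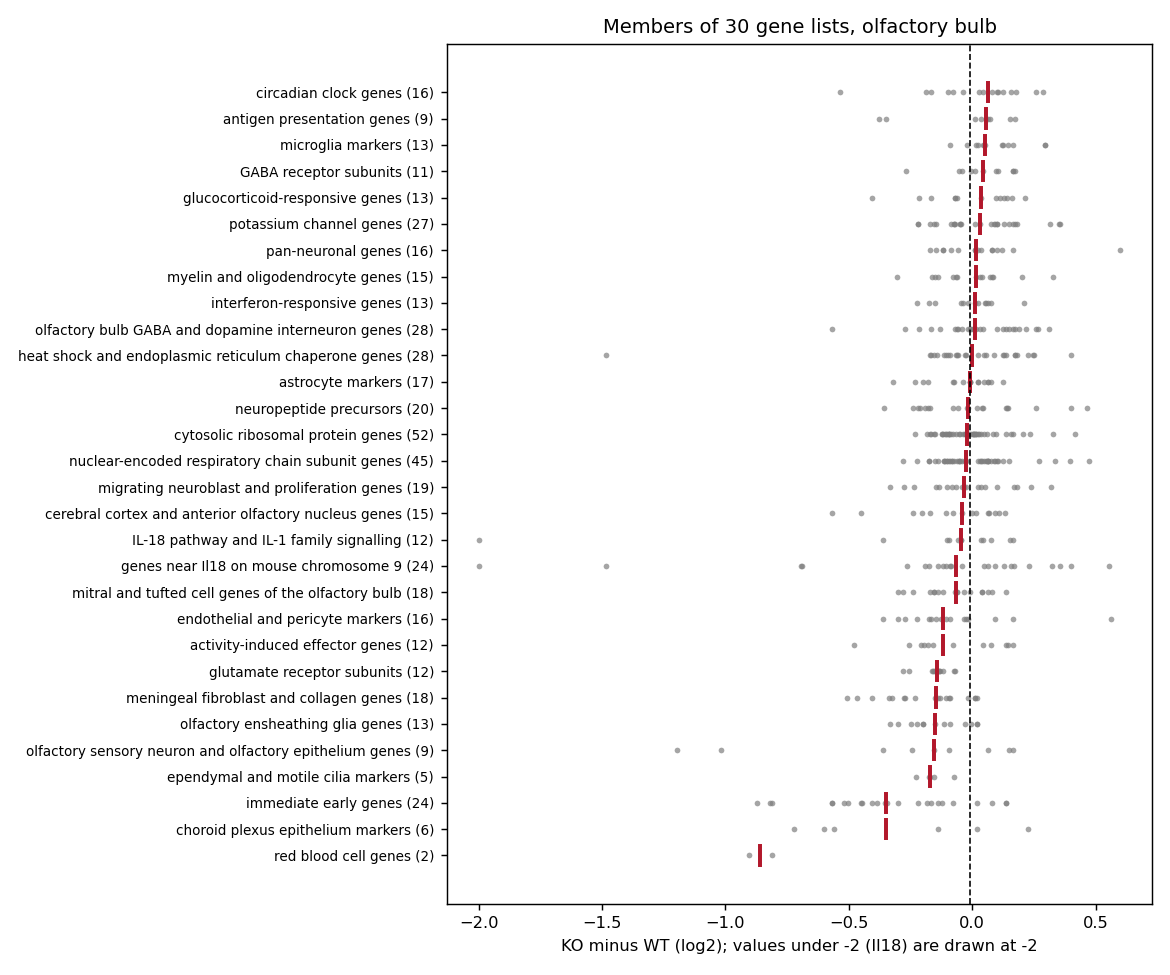
KO minus WT differences (log2, x axis) of the member genes of 30 lists in the olfactory bulb, 1 grey point per gene, with the median of each list as a red bar and the number of members in brackets. The dashed line is the median of all named members, -0.0074. The red blood cell, choroid plexus and immediate early lists have the lowest medians, and every other list median lies within 0.2 of 0.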

How the data were processed

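RNA of the olfactory bulb was measured on 1-colour Agilent arrays labelled with Cy3 from 400 ng of total RNA, per the labels' protocols. The deposited files give a processed intensity for each spot, from which Agilent Feature Extraction (version 9.5.3.1) had subtracted the background without scaling arrays to each other, as their headers record. The authors also deposited a ratio of KO over WT for each probe, which for probes with 1 spot equalled the ratio of the values here apart from a log2 offset of 0.0036.

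Control spots and outlier spots were left out, repeated spots averaged, log2 values centred on the 75th percentile of gene spots, and members chosen by brightness (Python 3.11.15, pandas 2.3.3). A gene is its brightest member probe. Named genes are Il18, the 15 highest and 15 lowest named members, for each list the 2 highest, 2 lowest and 2 brightest members, and the 1.5-fold genes near Il18; further members were named after their values were seen. Members and lists were chosen with earlier results of these data known. Gene lists overlap, Igfbp2 and Nr4a2 being in 3 lists each. The script was tested on simulated data. Alternatives were other scalings, normexp with an offset of 50 on median signals (limma 3.58.1, R 4.3.3), since no mean signal column was used, other brightness limits, the mean of probes, 1.5-fold and the authors' ratio. 1 array a side allows no test and no interval.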

Additional observations from a re-analysis of the deposited data

How the results depend on the processing

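The 16 lower and 1 higher genes 2-fold apart became 160 and 83 when all probes well above background were kept, 8 and 0 under a stricter brightness limit (the 75th percentile of such probes), and 67 and 34 at 1.5-fold; median scaling gave 3 higher. The higher share of 2-fold calls moved from 5.88% to 17.6% under median scaling and 34.2% with all probes, and that of 1.5-fold calls from 33.7% to 50.9% under median scaling, which moved the median of all genes from -0.02 to 0.05. At 1.5-fold, normexp gave 19 higher and 47 lower, all probes 299 and 768, and the stricter limit 13 and 27. Of 235 gene differences recomputed, 225 moved by less than the error used and 10 by more, none with a change of sign. Il18 differed by -3.14 and Itga1 by -2.28 under normexp, and with the mean of all member probes Bysl differed by -0.68, Pdpk1 by -0.27 and Ddx25 by -0.21. The choroid plexus median, -0.35, turned to 0.0207 under the stricter brightness limit, where Folr1, Clic6 and Prlr are too dim to enter. The immediate early median ran from -0.35 to -0.28. In the authors' deposited table the log2 ratio of Il18 was -4.23. No paired analysis was possible because each group had 1 array, and no replicate could be left out. Dim probes limit the reading: Il18 on the KO array, the IL-18 receptor chains and the hormone Gh lie near or below the level where the background sets the value.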
